A study of Mus musculus with 8 samples.

Results

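The clock kinases and ubiquitin regulators described here are 9 genes whose enzymes modify the proteins of the circadian clock after translation: Csnk1d, Csnk1e, Csnk2a1, Gsk3b, Prkaa1, Prkaa2, Btrc, Fbxl21 and Usp2. They were chosen by name for that role, with earlier results of these data known. Each was found as 1 row among the 55487 genes of the count table. Messenger RNA was measured by bulk RNA sequencing in 8 libraries of the stromal vascular fraction (SVF), the non-tumor cells of a dissociated tumor, from subcutaneous tumors of the murine colon cancer line MC38 marked with green fluorescent protein. Of these libraries, 4 were labelled Bmal1+/+ and 4 Bmal1-/-, the latter from mice lacking the clock transcription factor Bmal1 throughout the host. Both groups carried the same implanted tumor line, in which Bmal1 was intact, and fluorescent tumor cells were gated out by cell sorting. Age, sex, time of day and the number of animals behind a library were not given in the sources used here, so the p-values measure the spread between libraries, which may in part be technical.

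In the clock loop, BMAL1 and CLOCK switch on the Period (Per) and Cryptochrome (Cry) genes, whose proteins return to the nucleus and inhibit BMAL1 and CLOCK. Casein kinase 1 phosphorylates PER proteins, and the F-box protein beta-TrCP (Btrc) then recruits them for ubiquitination and degradation, whereas AMP-activated protein kinase (AMPK) and other F-box proteins act on CRY proteins. Deubiquitinases such as USP2 remove ubiquitin and oppose degradation, so this group of enzymes helps to set how long each clock protein lasts.

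Several features of the libraries bear on every value below. Library totals ranged from 14054825 to 18449143 counts. The targeted gene, Bmal1 (Arntl), was higher in the libraries labelled as lacking it. It was at 0.96 to 2.71 normalized CPM (counts scaled to a common library total) in the Bmal1+/+ libraries and 30.1 to 35.0 in those labelled Bmal1-/-. Reads from outside a deleted exon would still be counted, but where in the gene its reads lay, and why they were more numerous, was not tested. Mean CPM of Nr1d1, Nr1d2 and Per3 were 44.1, 145 and 72.2 in Bmal1+/+ libraries and 2.82, 12.1 and 5.80 in the others. Clock went the other way, at 18.4 and 59.4. Of 9 clock genes, edgeR called 4 lower and 3 higher, Bmal1 among the latter. Whether the labels are correct was not tested. The groups are therefore named by their labels throughout. The female-specific transcript Xist was at 844 to 1095 CPM in Bmal1+/+ libraries and 0.142 to 0.749 in the others, while 4 Y chromosome genes summed to 0 and to 121 to 144 CPM, so the genotype label and sex cannot be told apart. The 8 hepatocyte markers summed to 10.0% to 11.3% of normalized counts in Bmal1+/+ libraries and 5.67% to 6.88% in the others, whereas the 8 fibroblast markers summed to 136 to 218 and 103 to 109 CPM, so transcripts of hepatocytes, which a subcutaneous SVF should lack, far exceeded those of fibroblasts. In edgeR, 1 hepatocyte marker was called lower and 2 higher, and 4 fibroblast markers were called lower. The macrophage list (6 of 6 markers called lower, 405 to 507 against 183 to 332 CPM) and the endothelial list (4 of 5 lower, 132 to 164 against 76.2 to 110 CPM) also moved with the label. Epithelial and tumor markers summed to 193 to 238 and 235 to 375 CPM, with 2 of 5 called lower and 1 higher. Skeletal muscle markers did not reach 1 CPM in sum, with Acta1, Myh4 and Tnnt3 at 0, and neuron markers summed to 0.668 to 2.22 and 1.21 to 1.90 CPM, with Snap25 at 0. Acute-phase genes took 3.61% of the Bmal1-/- replicate 4 library and 0.173% to 0.425% of each of the others, and without that library 4 members were still called, as with it. The part of these differences in the results was not tested, and in such bulk samples fewer cells of a type and less RNA per cell cannot be told apart.

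Promoter sequence was looked at first, because BMAL1 and CLOCK bind E-box elements in their target genes. RefSeq promoter windows, 250 bases before to 50 after an annotated start in GRCm38.p6, were matched for 7 of the 9 members. They comprised 10 windows, since Csnk1e had 4 starts. Csnk1d and Btrc, which did not pass the test of difference below, had no matched window. Both strands were searched for the E-box CACGTG, its variant CACGTT, the D-box TTATGTAA and the RORE half-site AGGTCA, which occurred in 7.15%, 4.69%, 0.938% and 16.3% of all 32851 windows, respectively. None of the 10 windows held any of these letters, which says nothing of sites further away. After the sequences had been seen, the GC box GGGCGG and the CRE half-site TGACG were added, present in 35.7% and 20.8% of all windows, with overlapping matches counted. A GC box lay in the windows of 6 of the 7 genes, Gsk3b being the exception, and the GC content of the 10 windows was 57.3% to 82.0% against a median of 52.7% over all windows. The 250 bases upstream of the start are shown, 5′ to 3′ on the gene's strand, for Usp2, Prkaa2 and Prkaa1, the members with a single window whose transcripts passed the test of difference below, and capitals mark GC boxes on either strand. They lie at chr9:44084670-44084919 on the plus strand for Usp2, at chr4:105109899-105110148 on the minus strand for Prkaa2 and at chr15:5143611-5143860 on the plus strand for Prkaa1. The Usp2 window ends at a start inside the annotated gene, which spans chr9:44067021-44095627.
Usp2: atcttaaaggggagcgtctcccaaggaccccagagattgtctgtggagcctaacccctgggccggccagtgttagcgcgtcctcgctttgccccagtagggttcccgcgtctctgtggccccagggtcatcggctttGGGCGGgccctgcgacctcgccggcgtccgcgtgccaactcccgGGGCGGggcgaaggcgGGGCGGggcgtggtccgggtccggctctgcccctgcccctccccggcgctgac
Prkaa2: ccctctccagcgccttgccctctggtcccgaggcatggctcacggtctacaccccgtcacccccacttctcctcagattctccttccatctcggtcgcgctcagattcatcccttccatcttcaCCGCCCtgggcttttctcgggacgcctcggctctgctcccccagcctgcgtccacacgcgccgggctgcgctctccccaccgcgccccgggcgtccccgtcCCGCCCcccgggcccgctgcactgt
Prkaa1: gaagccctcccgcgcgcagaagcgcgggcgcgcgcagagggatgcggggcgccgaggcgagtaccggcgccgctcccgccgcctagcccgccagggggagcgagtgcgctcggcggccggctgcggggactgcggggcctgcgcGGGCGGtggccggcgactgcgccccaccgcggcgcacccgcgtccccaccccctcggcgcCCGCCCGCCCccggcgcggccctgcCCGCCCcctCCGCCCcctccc
The Usp2 stretch holds 3 GC boxes, at 113, 69 and 53 bases before the start, and its last 4 letters begin a CRE half-site that ends past the start and so past the printed stretch. Prkaa2 holds 2, at 126 and 25 bases, and Prkaa1 holds 5, of which 4 lie within 46 bases of the start. CRE half-sites also lay in the windows of Prkaa2, 196 bases before the start, Fbxl21 and Csnk1e, so that 4 of the 7 genes held one. Among the 7 genes with a window, no motif listed here separates those that differed between the groups from those that did not. Csnk2a1 and Fbxl21 also carry GC boxes, and Fbxl21 CRE half-sites. GC content was 71.7%, 72.7% and 82.0% for Usp2, Prkaa2 and Prkaa1, and 64.3% to 80.7% over the Csnk1e windows. For Csnk2a1, Fbxl21 and Gsk3b, which did not pass, it was 57.3%, 67.7% and 63.0%. Only the lowest Csnk1e window fell among these, and the difference was not tested.

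All 9 members passed the filter on low counts and were tested with 14353 genes in all. Of them, 4 were lower in the libraries labelled Bmal1-/- at an adjusted p below 0.05 by the quasi-likelihood test of edgeR: Usp2, Prkaa2, Csnk1e and Prkaa1. None was called higher, although Csnk1d had an unadjusted p below 0.05, and DESeq2 and limma-voom also called 4 members each. The background of this comparison is high, since 31.1% of all tested genes were called, 16.2% lower and 14.9% higher. The median log2 fold change of the 9 members was -0.32 against 0.02 over all tested genes. With the thresholds of the study's methods (change of more than 1 on the log2 scale in either direction, p below 0.05 before adjustment), which 14.1% of tested genes met, Usp2 alone among the members was retained. Normalized CPM did not overlap between the groups for 5 members, against 33.4% of all tested genes.

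**Figure D1:**
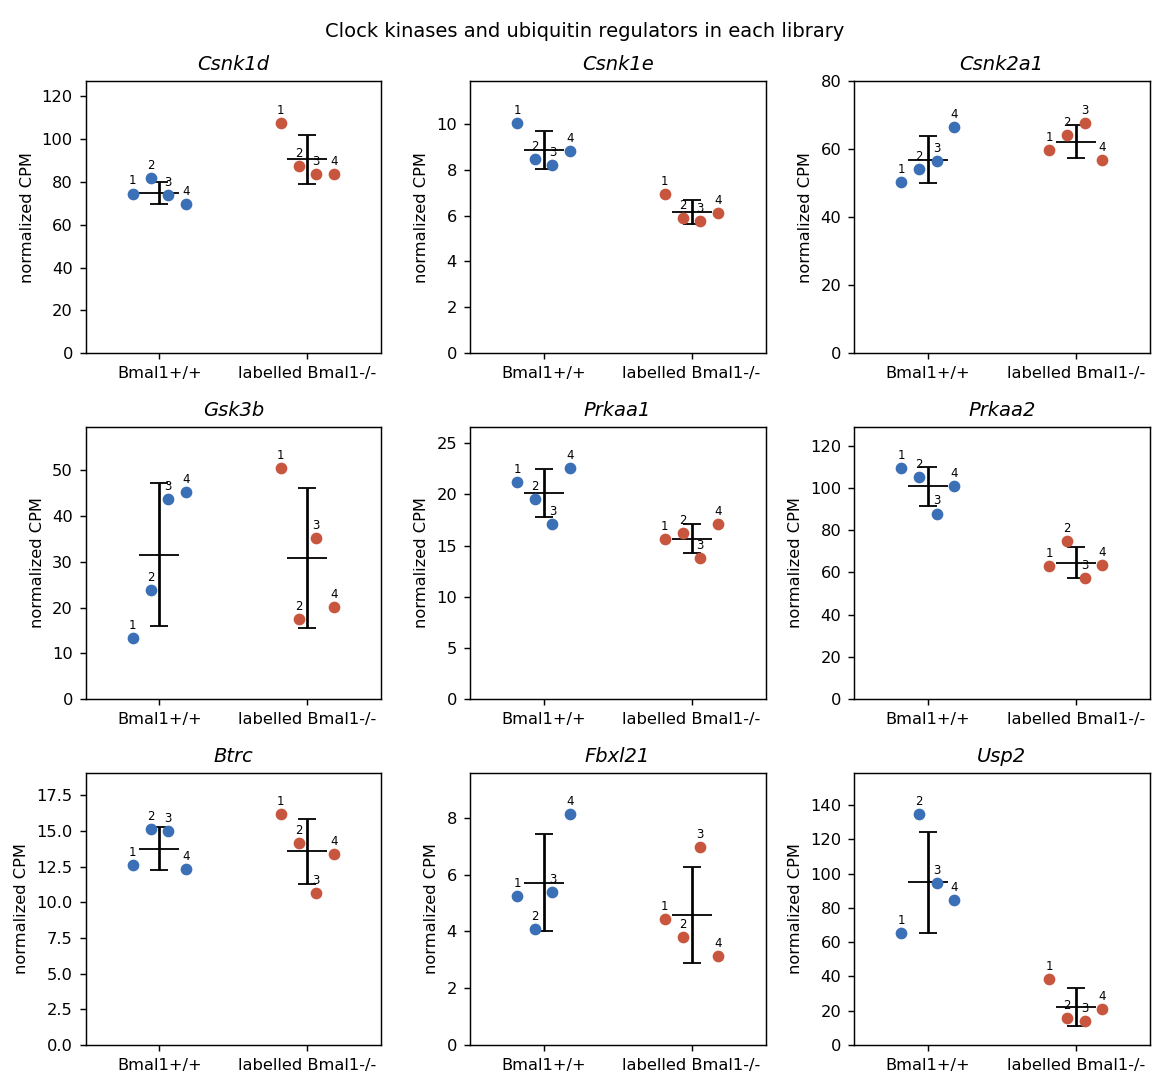
Normalized CPM of each of the 9 members in every library, with its own linear axis starting at 0; points are the 4 libraries labelled Bmal1+/+ and the 4 labelled Bmal1-/-, and bars mark the group mean ± SD. Usp2, Prkaa2, Csnk1e and Prkaa1 sit lower in every Bmal1-/- library than in any Bmal1+/+ library, Csnk1d sits higher, and the points of the other 4 genes interleave.

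The largest difference among the members was in Usp2, a ubiquitin-specific protease that acts on clock proteins and whose own transcript is rhythmic in many tissues. Its normalized CPM were 65.4, 135, 94.7 and 84.7 in Bmal1+/+ replicates 1 to 4, and 38.3, 15.9, 14.2 and 20.9 in the libraries labelled Bmal1-/-. The highest Bmal1-/- library, replicate 1, lay well below the lowest Bmal1+/+ library, and the other Bmal1-/- libraries lay lower still. Mean levels were 94.9 ± 29.2 and 22.3 ± 11.0 CPM (SD, n = 4 each), so the Bmal1-/- mean was 23.5% of the Bmal1+/+ mean. The log2 fold change was -2.09 ± 0.33 (SE, edgeR adjusted p = 0.0014), which placed Usp2 at rank 305 from the lowest among the 14353 genes. Leaving out Bmal1-/- replicate 1 moved the value to -2.48. Within each group Usp2 varied by 30.8% and 49.4% (coefficient of variation), against medians of 15.3% and 17.5% over all tested genes. Usp2 shares 200 exon bases with 2 genes on the opposite strand, Gm39325 and Gm49380, which had at most 2 counts in any library.

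Both catalytic subunits of AMPK, the kinase that senses cellular energy and phosphorylates CRY1, were lower in the libraries labelled Bmal1-/-. Prkaa2, which encodes the alpha2 subunit (chr4:105029874-105109890), was at 109, 105, 87.9 and 101 CPM in the Bmal1+/+ libraries and at 63.0, 74.7, 57.4 and 63.3 in the others. The highest Bmal1-/- library was below the lowest Bmal1+/+ library. The log2 fold change was -0.64 ± 0.11 (SE, edgeR adjusted p = 0.00246), the Bmal1-/- mean being 64.1% of the Bmal1+/+ mean. Prkaa1, encoding the alpha1 subunit (chr15:5143861-5181899), was at 21.2, 19.6, 17.1 and 22.6 CPM against 15.6, 16.2, 13.8 and 17.1, so that Bmal1+/+ replicate 3 and Bmal1-/- replicate 4 nearly met. Its log2 fold change was -0.36 ± 0.12 (SE, edgeR adjusted p = 0.0460). This call was close to the threshold: without Bmal1+/+ replicate 1, 2 or 4 or without Bmal1-/- replicate 1, 2 or 3 the edgeR adjusted p was 0.0815 to 0.106, and it remained below 0.05 without either of the other libraries. The direction was the same in every such fit.

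The alpha2 transcript was the more abundant of the AMPK catalytic subunits in all 8 libraries. On the deposited per-length scale, FPKM, in which fragments are divided by a fixed length per gene and the library total, Prkaa2 made up 83.4% ± 1.14 of the sum of Prkaa1 and Prkaa2 in Bmal1+/+ libraries and 80.4% ± 1.42 in the others (SD, n = 4 each). The length behind these FPKM, 7965 bases for Prkaa1 and 7969 for Prkaa2, is not the merged exon length of the GENCODE annotation, 4655 and 7969 bases. With the annotated exon lengths the Prkaa2 share was 74.6% ± 1.55 and 70.6% ± 1.87. The log2 ratio of Prkaa2 to Prkaa1 counts differed by -0.29 (exact permutation test over 70 splits, two-sided, p = 0.0571, adjusted p = 0.143 over 5 paralog pairs), and the ratios overlapped. With 4 libraries a group the smallest p this test allows is 0.0286, and a single pair at that p has an adjusted p of 0.143, so no lone pair could pass.

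The rest of the AMPK machinery was tested as a list of 9 genes for the beta and gamma subunits and the upstream kinases with their partner proteins. None passed at an adjusted p below 0.05 in edgeR, DESeq2 or limma-voom, and 2 had an unadjusted p below 0.05, both with lower values. These were Prkag2, encoding a gamma subunit, with a log2 fold change of -0.31 (edgeR adjusted p = 0.0699), and Camkk2, encoding an upstream calcium-dependent kinase, with -0.35 (edgeR adjusted p = 0.113), both named after their values were seen. Of the 9 log2 fold changes, 7 were negative, with a median of -0.19. Stk11, which encodes the main upstream kinase LKB1, had -0.09.

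**Figure D2:**
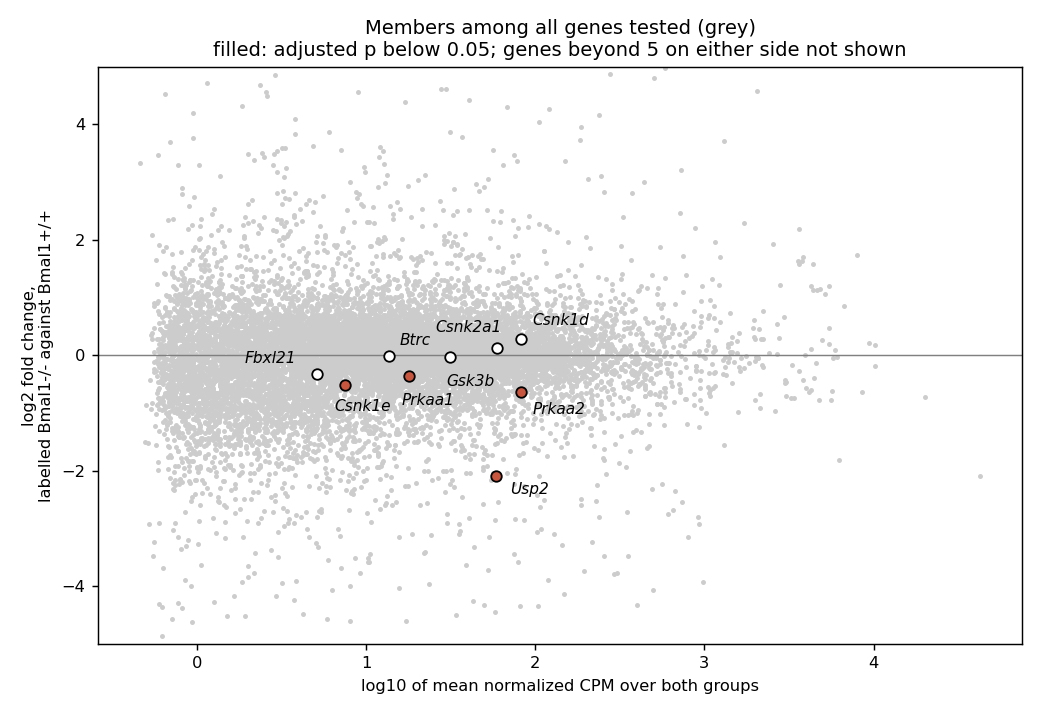
Log2 fold change of the libraries labelled Bmal1-/- against Bmal1+/+, by the log10 of mean normalized CPM over both groups, for the tested genes in grey (95 genes beyond 5 on either side are not shown) and the 9 members, filled where the edgeR adjusted p was below 0.05. Usp2 lies at -2.09, below most grey points of its level, while the other 8 members lie between -0.64 and 0.27.

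Casein kinase 1 is encoded in part by Csnk1d and Csnk1e, whose products are the main kinases of PER proteins. Csnk1e fell in the libraries labelled Bmal1-/-, whereas Csnk1d had higher values there that did not pass the test. Csnk1e (chr15:79417856-79455566) was at 10.1, 8.45, 8.20 and 8.80 CPM in Bmal1+/+ libraries and at 6.93, 5.89, 5.76 and 6.11 in those labelled Bmal1-/-. All 4 Bmal1-/- values lay below the lowest Bmal1+/+ value, and the log2 fold change was -0.52 ± 0.13 (SE, edgeR adjusted p = 0.0148). These values rest on 81 to 167 counts a library. Csnk1d (chr11:120961749-120991330) was at 74.5, 81.7, 73.7 and 69.5 CPM against 108, 87.2, 83.5 and 83.4. The groups did not overlap, but Bmal1-/- replicate 1 stood apart from the other 3, and the log2 fold change of 0.27 ± 0.11 did not pass (SE, edgeR adjusted p = 0.0885).

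Csnk1d was the main of these paralogs on the deposited FPKM scale, and the share of Csnk1e was smaller in the libraries labelled Bmal1-/-. Csnk1e made up 9.12%, 7.15%, 7.64% and 8.60% of the sum of both in the Bmal1+/+ libraries and 4.57%, 4.78%, 4.89% and 5.16% in the others, with no overlap. The log2 ratio of Csnk1e to Csnk1d counts was -3.07 ± 0.17 and -3.86 ± 0.08 (SD, n = 4 each), a difference of -0.79. Its exact permutation p of 0.0286, two-sided, is the smallest possible with these groups, and the adjusted p was 0.143 over 5 pairs. The ratio is taken within a library and so does not depend on how libraries are scaled. An antisense gene, Gm28192, shares 63 exon bases with Csnk1d and had 14 to 32 counts, against 1097 to 1723 for Csnk1d. Gm16059, antisense to Csnk1e, had at most 2.

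Csnk2a1 (chr2:152226839-152281852) encodes a catalytic subunit of casein kinase 2, which phosphorylates BMAL1 and PER2. It was at 50.3, 54.3, 56.6 and 66.6 CPM in Bmal1+/+ libraries and 59.9, 64.3, 67.9 and 56.8 in the others. The groups overlapped over most of their range, and the log2 fold change was 0.13 ± 0.11 (SE, edgeR adjusted p = 0.417). Its paralog Csnk2a2 was called higher, by 0.28 ± 0.09 on the log2 scale (SE, edgeR adjusted p = 0.0440). The ratio of Csnk2a1 to Csnk2a2 differed by -0.15 on the log2 scale (exact permutation p = 0.171, adjusted p = 0.286), so a difference between the paralogs was not shown. Of the 6 casein kinase relatives, Csnk1g3, a membrane-bound casein kinase 1, was called lower at 49.0 to 60.8 against 30.9 to 39.8 CPM (log2 fold change -0.66, edgeR adjusted p = 0.00215), and the other 4 did not pass.

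Gsk3b (chr16:38089001-38246084) encodes glycogen synthase kinase 3 beta, which phosphorylates several clock proteins including REV-ERB alpha. It was the most variable member in Bmal1+/+ libraries, and as variable as Usp2 in the others. Its CPM were 13.4, 23.9, 43.8 and 45.2 in Bmal1+/+ libraries and 50.4, 17.5, 35.2 and 20.1 in those labelled Bmal1-/-. Each group therefore held both low and high libraries, with a coefficient of variation of 49.3% and 49.4%, above that of 94.8% and 91.6% of tested genes. The log2 fold change was -0.03 ± 0.42 (SE, edgeR adjusted p = 0.961), so a difference as small as this SE was not detectable at this spread. The paralog Gsk3a varied little, at 54.2 to 58.4 and 48.2 to 58.7 CPM, so the share of Gsk3b in the sum of both FPKM ran from 7.84% to 22.4% among Bmal1+/+ libraries and from 11.1% to 23.6% among the others. The log2 ratio of Gsk3b to Gsk3a differed by 0.06 (exact permutation p = 0.886, adjusted p = 0.886). Of the 12 genes listed as Gsk3a and other kinases that act on clock proteins, 2 passed, both lower. Mapk3, a mitogen-activated kinase, had a log2 fold change of -0.35 (edgeR adjusted p = 0.0246), and Akt1, a kinase that inhibits GSK3, had -0.42 with overlapping groups (edgeR adjusted p = 0.0487).

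**Figure D3:**
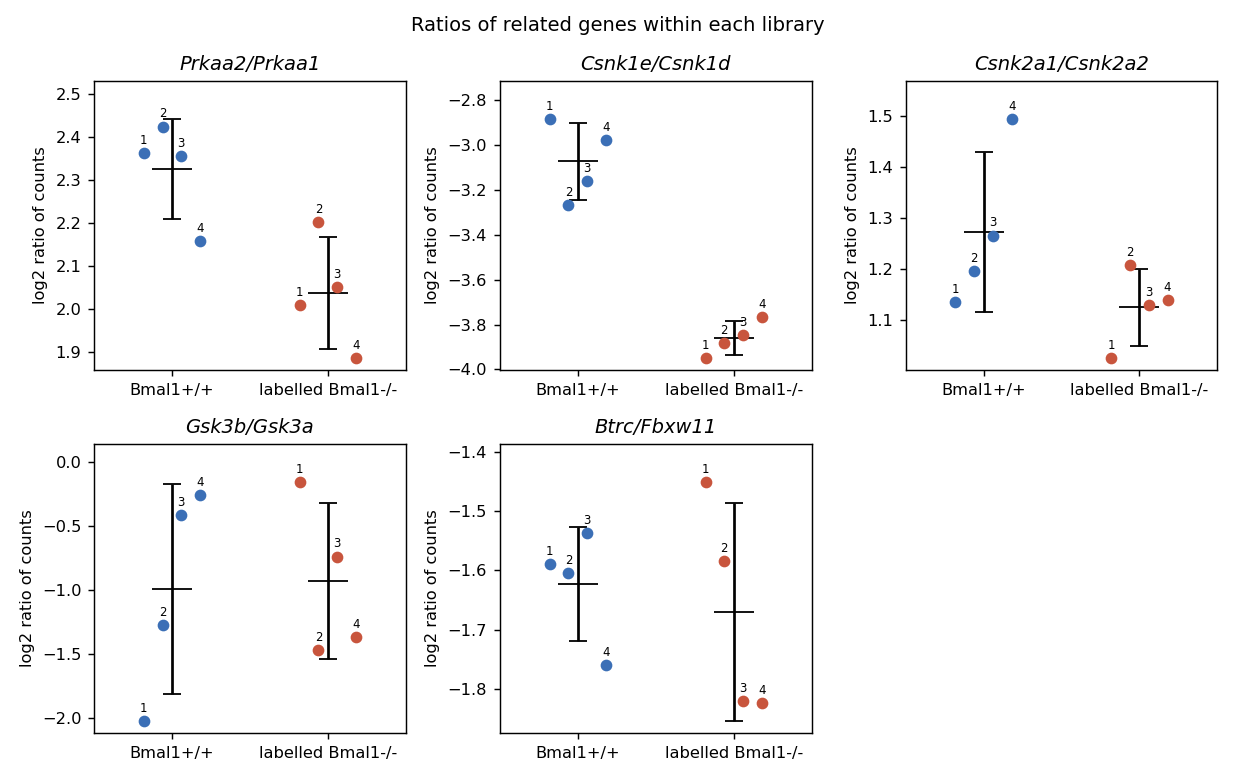
Log2 ratio of counts of 5 paralog pairs in each of the 8 libraries, by group, with bars at the group mean ± SD. The ratio of Csnk1e to Csnk1d is lower in all 4 libraries labelled Bmal1-/- than in any Bmal1+/+ library, and the groups of the other 4 pairs overlap.

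Neither F-box member differed between the groups by more than its spread. Btrc (chr19:45363734-45530013) encodes beta-TrCP1, the substrate receptor that recognises phosphorylated PER proteins. It was at 12.6, 15.1, 15.0 and 12.3 CPM in Bmal1+/+ libraries and at 16.2, 14.1, 10.7 and 13.4 in the others, the Bmal1-/- values enclosing all Bmal1+/+ values. The log2 fold change was -0.02 ± 0.15 (SE, edgeR adjusted p = 0.952). The pseudogene Gm6807 shares 235 exon bases with Btrc on the opposite strand. It had 13 to 21 counts in Bmal1+/+ libraries and 25 to 42 in the others, against 150 to 259 for Btrc. Since use of strand in the counting was not stated, their reads cannot be fully told apart. The log2 ratio of Btrc to its paralog Fbxw11 differed by -0.05 (exact permutation p = 0.743, adjusted p = 0.886).

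Fbxl21 (chr13:56522472-56537898) encodes an F-box protein directed at CRY proteins. Its CPM were 5.24, 4.10, 5.37 and 8.13 against 4.43, 3.81, 6.97 and 3.12, resting on 46 to 146 counts a library. The groups overlapped, Bmal1+/+ replicate 4 and Bmal1-/- replicate 3 being the highest of their groups. The log2 fold change was -0.32 ± 0.29 (SE, edgeR adjusted p = 0.427). It was -0.11 without Bmal1+/+ replicate 4 and -0.61 without Bmal1-/- replicate 3.

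Among 16 further ubiquitin ligase genes, 2 were called lower and 1 higher. Siah2, a RING ligase, was at 19.3 to 31.2 against 14.0 to 15.7 CPM (log2 fold change -0.62, edgeR adjusted p = 0.0151). Cul4a, a cullin scaffold, had a log2 fold change of -0.81 with overlapping groups (edgeR adjusted p = 0.0242). Cul1, the scaffold of the ligase complex in which Btrc and Fbxl21 act, was higher at 67.9 to 85.9 against 50.1 to 60.0 CPM (log2 fold change 0.39, edgeR adjusted p = 0.0223). The 4 other deubiquitinases, Usp7, Usp9x, Usp14 and Usp21, had log2 fold changes of -0.05 to 0.12. None of them passed in edgeR, DESeq2 or limma-voom or had an unadjusted p below 0.05, whereas Usp2 had -2.09. None of the 6 protein phosphatase genes passed in edgeR or limma-voom, 1 passed in DESeq2 and 2 had an unadjusted p below 0.05.

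Over these 6 lists together, 7 of 53 genes were called, 5 lower and 2 higher, against the 31.1% of all tested genes given above, and the median log2 fold change was -0.05. The count was 7 in edgeR and limma-voom and 8 in DESeq2, but fell to 3 without Bmal1+/+ replicate 2 or Bmal1-/- replicate 2, and to 4 without Bmal1+/+ replicate 1 or 4. By the study's thresholds 2 of the 53 were retained, Spsb4 and Ppp1cc, which had edgeR adjusted p of 0.0564 and 0.113 and were named after their values were seen. The transcripts of the clock proteins these enzymes act on had log2 fold changes from -3.97 for Nr1d1 to 4.38 for Arntl. Arntl is the targeted gene and is itself among those called higher. Of 9 such genes, 4 were called lower and 3 higher, among them Per2 at 65.4 to 85.6 against 30.1 to 36.8 CPM (log2 fold change -1.18, edgeR adjusted p = 9.39e-05) and Cry1 at 15.8 to 21.3 against 73.5 to 103 CPM (2.32, edgeR adjusted p = 6.57e-06). Per1, with a log2 fold change of -0.74 (edgeR adjusted p = 0.114), and Cry2, with 0.50 (edgeR adjusted p = 0.0651), did not pass.

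**Figure D4:**
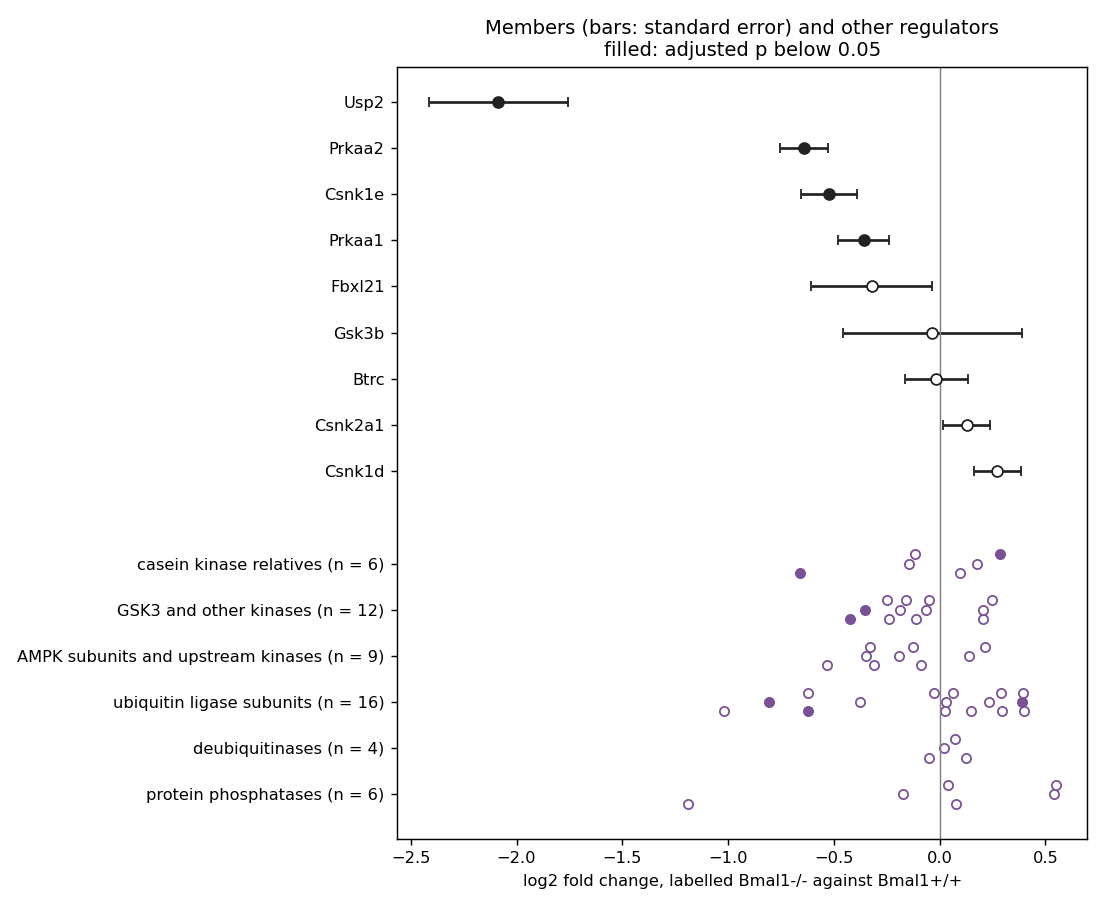
Log2 fold change of the libraries labelled Bmal1-/- against Bmal1+/+ for the 9 members (bars, standard error) and for each gene of the 6 lists of other regulators (points), filled where the edgeR adjusted p was below 0.05. Filled members run from -2.09 for Usp2 to -0.36 for Prkaa1, and 7 of the 53 other regulators are filled.

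On the deposited FPKM scale, the members spanned a wide range of levels and their order differed between the groups. In Bmal1+/+ libraries the mean FPKM were 12.5 for Prkaa2, 11.5 for Csnk1d and 11.5 for Usp2, with overlapping ranges, then 7.15 for Csnk2a1, which overlapped with Usp2. Gsk3b at 2.72 and Prkaa1 at 2.50 followed below a gap. Below a further gap, Csnk1e at 1.02, Fbxl21 at 0.788 and Btrc at 0.721 formed the lowest set with overlapping neighbours. That gap was narrow, as the lowest Gsk3b library, at 1.175, nearly met the highest Csnk1e library, at 1.173. In the libraries labelled Bmal1-/- the mean FPKM of Csnk1d was 14.2, above the range of Prkaa2 at 8.18, which overlapped with Csnk2a1 at 7.98. Usp2 at 2.77 was then in the range of Gsk3b at 2.72, and Gsk3b overlapped with Prkaa1 at 1.98. Btrc at 0.728, Csnk1e at 0.721 and Fbxl21 at 0.646 were again lowest and not separated from their neighbours. The FPKM equalled count over total and a fixed gene length within 1% for 100% of the 12597 genes checked. That length exceeded the merged exon length unevenly, at 8149 against 4818 bases for Usp2, so the order between genes depends on it. Per annotated exon length, a choice added after the data were seen, Usp2 led in Bmal1+/+ libraries at 19.4, overlapping with Csnk1d at 14.7, which overlapped with Prkaa2 at 12.5. Prkaa1 at 4.27 then preceded Gsk3b at 3.17, with overlapping ranges. Gsk3b also overlapped with Csnk1e on this scale, so the gap above Csnk1e was absent. In the libraries labelled Bmal1-/- Csnk1d again led, at 18.2, above the range of the next gene, Csnk2a1 at 8.85. Prkaa2 at 8.18 overlapped there with Usp2 at 4.68, Fbxl21, Csnk1e and Btrc were again lowest, and no fold change between the groups is affected, since the length of a gene is the same in every library.

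The genes most like the 4 called members across the 8 libraries were found by the Pearson correlation of log2 normalized CPM, given as a description because the libraries share the group difference. They were Itprip for Usp2 (r = 0.995, n = 8 libraries), Sgms1 for Prkaa2 (0.987), Pdxp for Csnk1e (0.990) and Cdk14 for Prkaa1 (0.979). After each group's mean was removed, r was 0.984, 0.907, 0.928 and 0.942, in the same order. Each gene was chosen for the highest r over the 8 libraries among all tested genes, so values near 1 come with the choice. The r after removal of group means was computed for the chosen gene only and was not ranked.

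**Figure D5:**
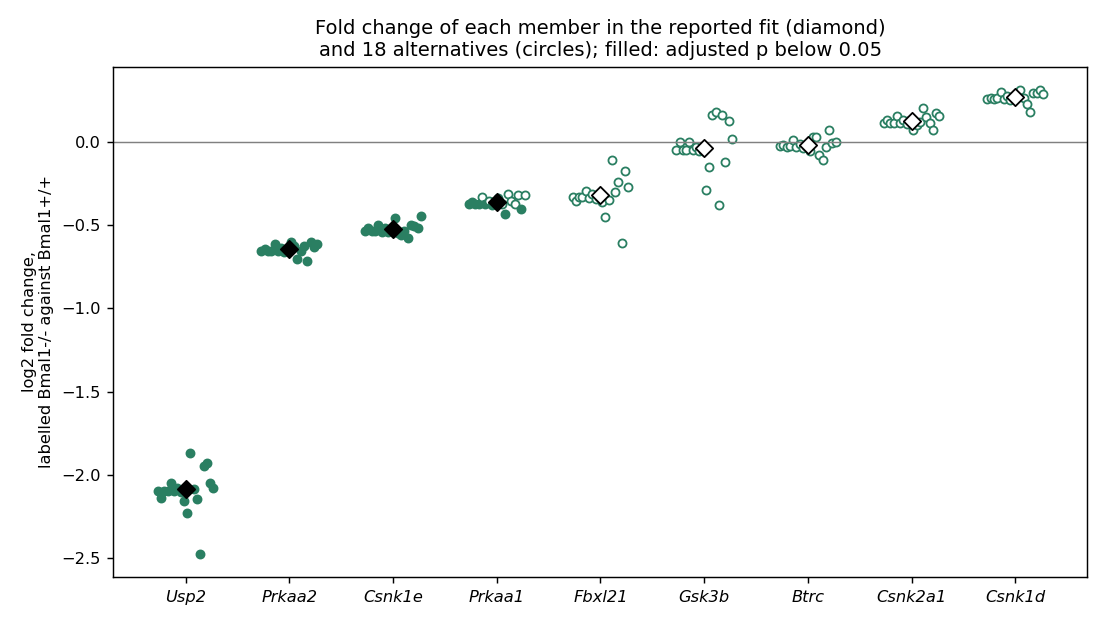
Log2 fold change of each of the 9 members in edgeR as reported and under 18 alternatives of test, normalization, filter, block and left-out library. Values of Usp2 run from -2.48 to -1.87 and those of Prkaa2 from -0.71 to -0.60, while those of Gsk3b run from -0.38 to 0.18 and those of Btrc from -0.11 to 0.07, on both sides of 0.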

How the data were processed

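The authors sequenced mRNA of sorted tumor SVF as paired reads, aligned them to GRCm38 with HISAT and counted fragments per gene with StringTie, per the study's methods, whereas the submitters' processing notes name CASAVA 1.8 and TopHat2 2.0.6. The deposited table holds raw gene counts and FPKM, the authors' counts divided by gene length and library total, for the same 8 libraries. Use of strand was not given in the sources used here. No column of values was left out, and no 2 libraries agreed within sampling noise. The library titled Bmal1 KO6 is Bmal1-/- replicate 4, as its description states.

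Gene identifiers were matched to symbols for 99.4% of 55487 genes, and gene positions were taken from GENCODE annotation of GRCm38. Counts were tested in R 4.3.3 with edgeR 4.0.16 (filterByExpr, trimmed mean of M values (TMM), quasi-likelihood test, 4 against 4 libraries, Benjamini-Hochberg over 14353 genes, called at adjusted p below 0.05). Normalized CPM are the deposited counts after that scaling, and 3 counts correspond to 0.163 to 0.213 CPM. The common dispersion was 0.0506. In simulated data, 199 of 14149 genes were changed, a far smaller share than was called in the real libraries. There, 54.5% of genes changed by a log2 of 1 and 96.0% of those changed by 2 were recovered, and 5.06% of calls were false. These rates need not hold where more genes differ. Paralog ratios (0.5 counts added to each) were tested by exact permutation. Alternatives used DESeq2 1.42.0, limma 3.58.1 (voom, and log2(FPKM + 0.1)), other scalings and filters, a replicate block and each library left out.

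The members, lists and tests were chosen with earlier results of these data known. Named genes were all members, their listed paralogs, up to 2 called genes per list and direction, the gene most correlated with each called member, and Arntl, Per1, Per2, Cry1 and Cry2. Stk11, Prkag2, Camkk2, Spsb4, Ppp1cc, Nr1d1, Nr1d2, Per3, Clock and the other deubiquitinases fall outside this rule and were named after their values were seen. One listed gene and its ratio are not reported here.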

Additional observations from a re-analysis of the deposited data

Results flagged for a closer look

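The normalized CPM of Csnk1d was 108 in Bmal1-/- replicate 1 against 83.4 to 87.2 in the other libraries labelled Bmal1-/-, a gap to its nearest neighbour of 0.845 of the group's range. This exceeds the critical value of 0.829 for 4 samples. In all, 28 groups of 4 were examined and 1 stood out, where chance gives about 1 in 20.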

How the results depend on the processing

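Across 18 alternatives, Usp2 (log2 fold change -2.48 to -1.87), Prkaa2 (-0.71 to -0.60) and Csnk1e (-0.58 to -0.44) kept their direction and their call, and Csnk1d (0.18 to 0.31), Csnk2a1 (0.07 to 0.20) and Fbxl21 (-0.61 to -0.11) kept their direction and were called under none. Prkaa1 lost its call with library size only (-0.33), with no filter on low counts (-0.35), with limma on log2 FPKM (-0.32) and under the replicate block (-0.36). With 1 library left out Prkaa1 ranged from -0.43 to -0.31 and was called only without Bmal1+/+ replicate 3 or Bmal1-/- replicate 4. Over all its alternatives the adjusted p was 0.0299 to 0.106. Btrc and Gsk3b, called under none, changed sign: Btrc was 0.0139 with library size only and 0.0020 with limma on log2 FPKM, and -0.106 to 0.0715 with 1 library left out. Gsk3b was 0.0185 with limma on log2 FPKM and -0.38 to 0.18 with 1 library left out. The count of called members was 3 or 4 throughout. The count of called other regulators, 7 of 53, was 4 with no filter on low counts and 3 to 7 with 1 library left out. The causes were not tested. The replicate numbers are not stated to mark a shared animal, litter or day, and so were not treated as pairs. Libraries of the same replicate number did not deviate together (r of -0.06, 0.06, 0.04 and 0.04). The last of these r joins Bmal1+/+ replicate 4 and the library titled KO6. With the replicate block 3 members, 5 other regulators and 3873 of all genes were called, against 4457 without it. No scaling moved the median log2 fold change by more than 0.03.

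Depth limits Fbxl21 and Csnk1e most, at 46 to 167 counts a library. For the paralog ratios, values alone are given with 1 library left out, without a p-value. Pairing by number cannot reach an adjusted p below 0.05, and it too gives values only. Over the alternatives the difference of the log2 ratio was -0.85 to -0.72 for Csnk1e to Csnk1d, -0.34 to -0.24 for Prkaa2 to Prkaa1 and -0.19 to -0.07 for Csnk2a1 to Csnk2a2, while Gsk3b to Gsk3a (-0.28 to 0.31) and Btrc to Fbxw11 (-0.12 to 0.0042) changed sign.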
